A study of Mus musculus with 19 samples.

Results

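The MHC class II presentation genes H2-Aa, H2-Ab1, H2-Eb1, Cd74, H2-DMa, H2-DMb1, Ciita, Ctss and Ctsh were examined by RNA sequencing in 19 libraries of Tregs, the regulatory CD4 lymphocytes that hold immune responses in check in mice. They are 9 of 14290 genes with values in a set of stimulated Tregs and 9 of 14818 genes in a set of freshly sorted Tregs. The 9 genes were picked from these same libraries because their levels moved in opposite directions with loss of the NF-kB subunit c-Rel in stimulated and in sorted activated Tregs. Values of those contrasts are therefore given below as a description, with no test. All libraries came from YFP-positive cells of C57Bl/6 Foxp3-CRE-YFP mice, in which the Treg gene Foxp3 drives Cre, and the WT groups carry that transgene as well.

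In the stimulated set, c-Rel-deficient Tregs (c-Rel F/F, 2 libraries), WT Tregs with pentoxifylline at 500 ug/mL (2 libraries) and WT Tregs with water (2 libraries) were cultured for 16 h on coated anti-CD3 (5 ug/mL) with soluble anti-CD28 (1 ug/mL) and IL-2 (10 ng/mL). Pentoxifylline is a phosphodiesterase inhibitor. In the sorted set, activated Tregs (aTreg, CD62Llo CD44hi) and resting Tregs (rTreg, CD62Lhi CD44lo) came straight from spleen and lymph nodes, with no culture. It held c-Rel-deficient aTregs (2 libraries), p65-deficient aTregs (p65 F/F, 2 libraries), WT aTregs (3 libraries), c-Rel-deficient rTregs (2 libraries), p65-deficient rTregs (2 libraries) and WT rTregs (2 libraries). The labels give no age and do not say whether libraries of a group came from separate mice, so the p-values below measure the spread between these libraries, which may be technical.

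MHC class II molecules are heterodimers of an alpha and a beta chain that display peptides from endosomes to CD4 T cells. H2-Aa and H2-Ab1 encode the chains of I-A, and H2-Eb1 encodes the beta chain of I-E. The invariant chain, encoded by Cd74, fills the groove and guides the dimers to endosomes, where cathepsin S (Ctss) cuts it and the H2-DM dimer (H2-DMa, H2-DMb1) exchanges its last fragment for peptide. Transcription of the chains, of Cd74 and of H2-DM depends on the coactivator CIITA (Ciita), which is recruited by factors bound at the conserved X and Y boxes of their promoters. These genes are typical of B cells, dendritic cells and macrophages, and mouse T cells are known for low class II transcription. Cathepsin H (Ctsh) is a lysosomal aminopeptidase.

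The GENCODE vM21 annotation of GRCm38 places H2-Aa at chr17:34282744-34287823 on the minus strand, H2-Ab1 at chr17:34257689-34269419 and H2-Eb1 at chr17:34305867-34316674 on the plus strand. H2-DMa lies at chr17:34119541-34139101, H2-DMb1 at chr17:34153072-34160230, Ciita at chr16:10480059-10528418, Ctss at chr3:95526786-95556403 and Ctsh at chr9:90054152-90076089, all on the plus strand.

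Promoter sequence was read for 5 of the 9 genes from RefSeq (GRCm38.p6). The 160 bases before the first start are printed for the chain and H2-DM genes because factors bound at X and Y boxes recruit CIITA there, and for Ctss because, as described below, its level did not follow the chain genes. Capitals mark an X box core (GNAACT) followed on the gene's strand by a Y box (ATTGG), or in Ctss a match to the interferon-stimulated response element (GAAANNGAA). The motifs were chosen after the promoters had been read.
H2-Aa (chr17:34287824-34287983, minus strand): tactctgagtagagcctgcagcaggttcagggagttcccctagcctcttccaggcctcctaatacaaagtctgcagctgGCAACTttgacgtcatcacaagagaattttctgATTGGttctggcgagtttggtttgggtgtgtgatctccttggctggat
H2-Eb1 (chr17:34305707-34305866, plus strand): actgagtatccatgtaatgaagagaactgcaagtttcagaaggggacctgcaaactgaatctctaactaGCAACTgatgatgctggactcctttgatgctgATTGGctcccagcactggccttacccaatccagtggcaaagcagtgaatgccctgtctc
H2-DMb1 (chr17:34153031-34153190, plus strand): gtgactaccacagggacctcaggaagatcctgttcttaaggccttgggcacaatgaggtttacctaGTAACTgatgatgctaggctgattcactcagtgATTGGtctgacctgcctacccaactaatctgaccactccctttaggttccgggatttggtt
H2-DMa (chr17:34122672-34122831, plus strand): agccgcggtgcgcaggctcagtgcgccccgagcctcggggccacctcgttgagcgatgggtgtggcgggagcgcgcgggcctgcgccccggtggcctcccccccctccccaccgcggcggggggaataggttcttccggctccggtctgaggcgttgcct
Ctss (chr3:95526626-95526785, plus strand): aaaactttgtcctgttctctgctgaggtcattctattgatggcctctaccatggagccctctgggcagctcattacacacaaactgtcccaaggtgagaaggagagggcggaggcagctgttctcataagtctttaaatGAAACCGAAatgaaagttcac
H2-Aa, H2-Eb1 and H2-DMb1 each held an X box core and a Y box whose starts lay 33, 32 and 33 bases apart. That arrangement, with starts 15 to 45 bases apart, was found in 204 of 32851 promoters of the same length (0.621%). On either strand, 42.8% of all promoters held an X box core, 37.4% a Y box, 8.56% the interferon-stimulated element and 5.82% the NF-kB motif GGNNTTTCC. Of the promoters read, that of H2-DMb1 held a match to this NF-kB motif. It lay on the other strand at position -172 from the start site, outside the printed bases. Neither H2-DMa, at either of its listed starts, nor Ctss held an X core and a Y box in that arrangement. Both listed starts of H2-DMa lie inside its GENCODE span, and the bases before position 34119541 were not read. The result for H2-DMa therefore holds for the listed starts only. A match to these letters is a description, not a site. The promoters of Cd74, H2-Ab1, Ciita and Ctsh were not used here.

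Levels are RPKM, reads scaled to transcript length and to the reads of the library. In the stimulated set the low values are whole multiples of 1 read, and relative depth ranged from 0.682 to 1 of the first water library. Of the sorted values 2.535% lie below 0, and from these and from ties an adjustment by replicate number is inferred. The sorted values are therefore set side by side within a number where a low level matters. Number 3 holds c-Rel-deficient and WT aTregs only. Rel, which encodes c-Rel, had 2.44 and 25.0 RPKM in stimulated c-Rel-deficient Tregs, against 55.1 and 55.8 RPKM with water. The stimulated c-Rel-deficient libraries thus differed widely from each other in Rel, and why was not tested. Rel had 1.39 to 5.37 adjusted RPKM in the sorted c-Rel-deficient libraries against 10.9 to 22.0 in sorted WT libraries. Rela, which encodes p65, had 46.8 to 69.4 adjusted RPKM in the p65-deficient libraries and 62.3 to 71.5 in sorted WT libraries, so these whole-gene levels do not check the p65 label. Foxp3 was detected in every library, at 107 to 290 RPKM in the stimulated and 28.1 to 102 adjusted RPKM in the sorted set.

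In stimulated Tregs, the 3 chain genes were lowest without c-Rel, intermediate with pentoxifylline and highest with water, and no groups overlapped. H2-Aa had 1.45 and 1.25 RPKM in c-Rel-deficient Tregs, 6.36 and 2.70 RPKM with pentoxifylline and 13.6 and 17.6 RPKM with water. H2-Ab1 had 1.00 and 0.808 RPKM without c-Rel, 3.43 and 1.69 RPKM with pentoxifylline and 10.7 and 13.8 RPKM with water. H2-Eb1 had 1.32 and 1.64 RPKM without c-Rel, 4.76 and 2.13 RPKM with pentoxifylline and 9.50 and 11.1 RPKM with water. The first pentoxifylline library was above the second for each chain gene. As recovered reads these levels are small, with 31 and 25 reads of H2-Aa in c-Rel-deficient Tregs, 118 and 43 with pentoxifylline and 317 and 390 with water.

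Cd74 was expressed above the chains in all 6 stimulated libraries. It had 30.5 and 36.8 RPKM without c-Rel, 39.1 and 32.9 RPKM with pentoxifylline and 57.8 and 64.1 RPKM with water. The water libraries were above the other 4, which overlapped each other. The ratio of Cd74 to H2-Aa was 21.1 and 29.4 in c-Rel-deficient Tregs, 6.15 and 12.2 with pentoxifylline and 4.27 and 3.65 with water, so Cd74 varied less than the chain genes did. H2-Ab1 over H2-Aa stayed between 0.539 and 0.789 in the 6 libraries.

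The H2-DM genes did not vary together. H2-DMa had 30.9 and 20.6 RPKM in c-Rel-deficient Tregs, 13.2 and 15.04 RPKM with pentoxifylline and 16.1 and 26.1 RPKM with water. The c-Rel-deficient and water libraries overlapped. H2-DMb1 was counted in few reads, with 0.194 and 0.209 RPKM without c-Rel (5 and 5 reads), 0.269 and 0.313 RPKM with pentoxifylline (6 and 6 reads) and 1.103 and 0.713 RPKM with water (31 and 19 reads). H2-DMb1 has a near-identical neighbour, H2-DMb2, and how reads were shared between them is not given in the sources used here, so its level is uncertain.

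Ciita, the coactivator gene, was low in every stimulated library. It had 0.0735 and 0.138 RPKM in c-Rel-deficient Tregs (4 and 7 reads), 0.0636 and 0.123 RPKM with pentoxifylline (3 and 5 reads) and 0.488 and 0.479 RPKM with water (29 and 27 reads). The water libraries were above the other 4.

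The cathepsin genes differed from each other. Ctss was the most abundant of the 9 genes, with 106 and 129 RPKM without c-Rel, 80.5 and 128 RPKM with pentoxifylline and 120.0 and 136 RPKM with water, and all groups overlapped. Ctsh had 0.277 and 0.627 RPKM without c-Rel, 2.73 and 2.73 RPKM with pentoxifylline and 3.29 and 3.71 RPKM with water. Ctsh was low in the c-Rel-deficient libraries only, at 9 and 19 reads.

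**Figure D1:**
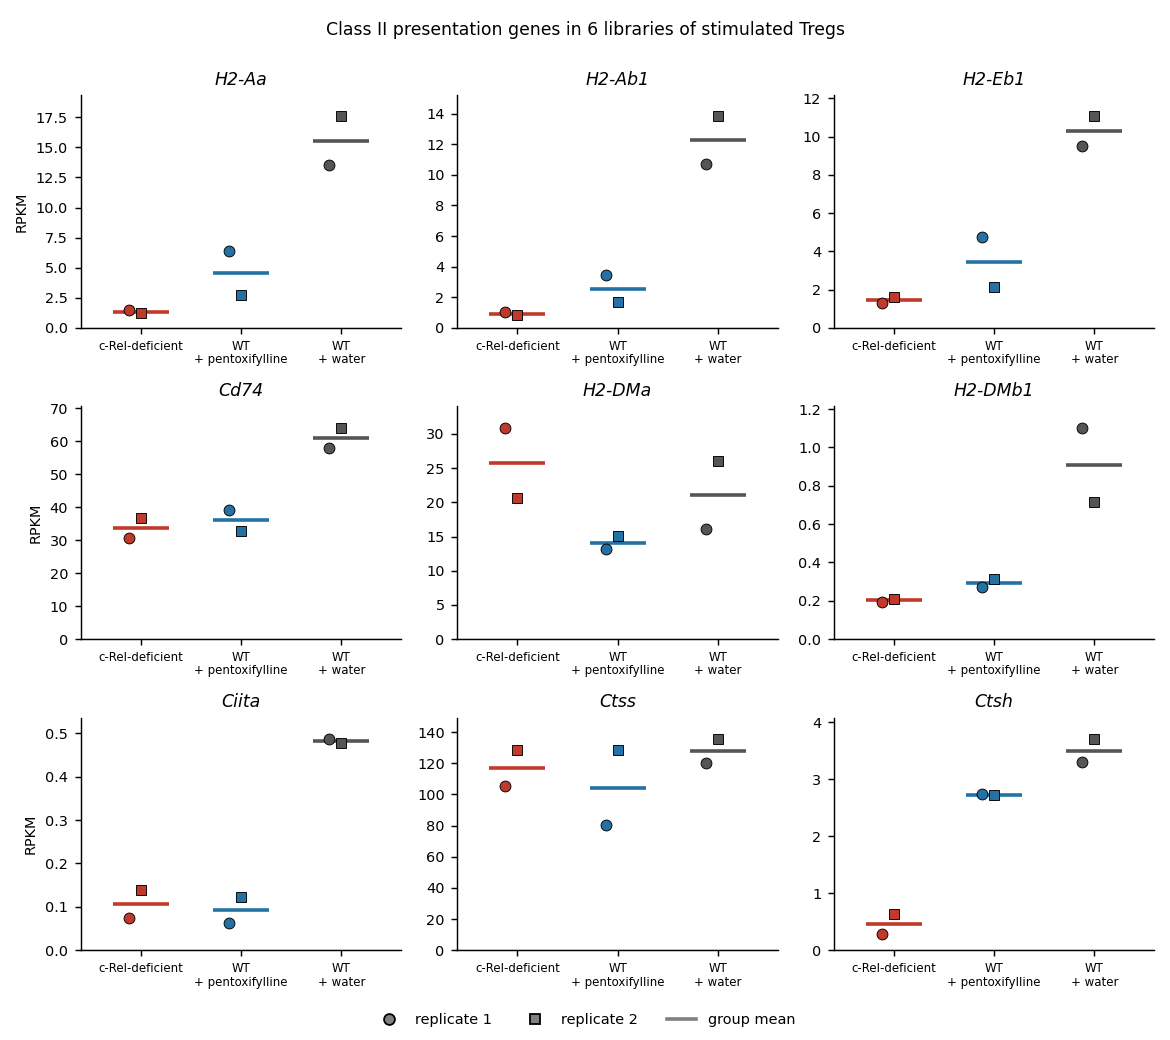
Level of each of the 9 genes in RPKM (vertical axis, linear, 1 panel per gene) in the 6 stimulated libraries, by group on the horizontal axis. Circles are replicate 1, squares replicate 2, and the bar is the group mean. H2-Aa, H2-Ab1 and H2-Eb1 are lowest in c-Rel-deficient Tregs, intermediate with pentoxifylline and highest with water, while Ctss overlaps between all groups.

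As a description of the contrast that chose the genes, 7 of the 9 were lower in both stimulated c-Rel-deficient libraries than in both water libraries, and H2-DMa and Ctss overlapped. Over all tested genes, 16.3% were lower and 24.2% higher without overlap. The log2 differences, taken on log2(RPKM + 0.5), were -3.17 for H2-Ab1, -3.11 for H2-Aa, -2.45 for H2-Eb1, -2.09 for Ctsh, -0.85 for Cd74, -0.13 for Ctss and 0.29 for H2-DMa. The median of the 7 genes that passed the low-value filter was -2.09, against 0.06 over all 9945 genes tested. Ciita and H2-DMb1 did not pass the filter. In limma 0.0% of genes passed an adjusted p of 0.05 in this contrast (791 genes had an unadjusted p under 0.05), and 2.14% did in the authors' deposited table, among them 5 of the 9 genes, all lower.

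Pentoxifylline was compared with water in stimulated WT Tregs with limma, using an adjusted p under 0.05 (Benjamini-Hochberg over all genes tested). The 3 chain genes and Cd74 fell with the drug. H2-Ab1 averaged 2.56 ± 1.23 RPKM with pentoxifylline and 12.2 ± 2.21 RPKM with water (SD, n = 2 each), a log2 difference of -2.11 (SE 0.30, limma adjusted p = 0.00205). H2-Aa averaged 4.53 ± 2.59 RPKM with pentoxifylline and 15.6 ± 2.84 RPKM with water, a log2 difference of -1.77 (SE 0.34, limma adjusted p = 0.00639). H2-Eb1 averaged 3.45 ± 1.86 RPKM with pentoxifylline and 10.3 ± 1.1 RPKM with water, a log2 difference of -1.53 (SE 0.32, limma adjusted p = 0.0085). The invariant chain gene Cd74 averaged 36.0 ± 4.40 RPKM with pentoxifylline and 60.9 ± 4.44 RPKM with water, a smaller log2 difference of -0.76 (SE 0.16, limma adjusted p = 0.00777).

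H2-DMa (log2 difference -0.53, SE 0.27), Ctss (-0.33, SE 0.23) and Ctsh (-0.31, SE 0.25) did not pass the limma test with the drug, with adjusted p of 0.147, 0.284 and 0.353. Of the 7 genes tested, 4 were called lower and 0 higher, while 43.5% of all 9945 genes were called in this comparison. The median of the 7 was -0.76, against 0.00 over all genes. Without the low-value filter Ciita (log2 difference -0.73, SE 0.09, limma adjusted p = 0.00674) and H2-DMb1 (-0.82, SE 0.15, adjusted p = 0.0164) were also called lower, at the read counts given above. Without the second water library only H2-Ab1 was called (log2 difference -1.93, limma adjusted p = 0.0225). H2-Aa, H2-Eb1 and Cd74 then had log2 differences of -1.59, -1.43 and -0.68, with limma adjusted p of 0.0527, 0.0614 and 0.0516. The water libraries are also those of the contrast that chose the genes, so the direction is not independent of that choice. For the drug 22.7% of genes passed in the authors' deposited table, and H2-Ab1, H2-Aa, H2-Eb1 and Cd74 were again the 4 genes called lower.

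**Figure D2:**
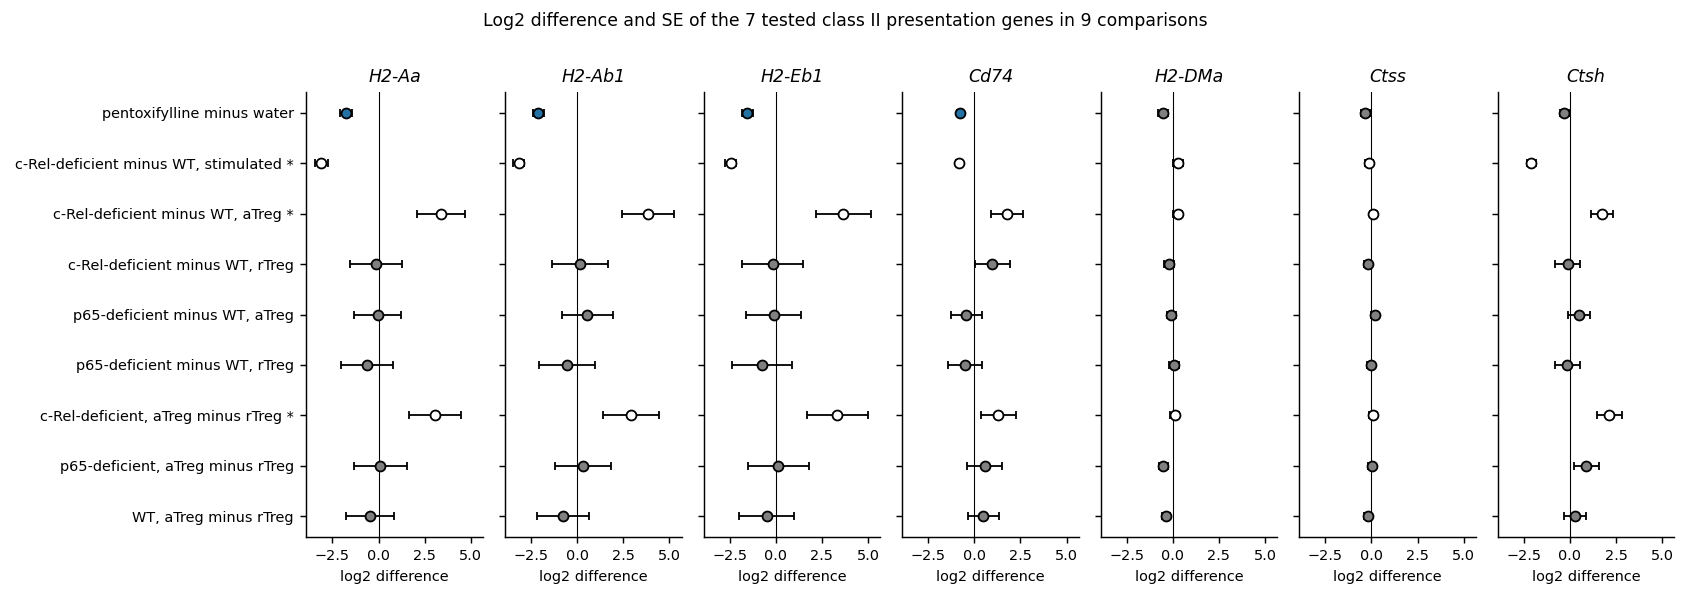
Log2 difference on log2(RPKM + 0.5) (horizontal axis) with its standard error for the 7 genes that passed the low-value filter, in 9 comparisons. Blue filled points have a limma adjusted p under 0.05, grey points do not, and open points with an asterisk carry no test. Contrasts with an asterisk chose the genes or share the c-Rel-deficient aTreg libraries with that choice. The only blue points are H2-Ab1, H2-Aa, H2-Eb1 and Cd74 with pentoxifylline, between -2.11 and -0.76.

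Other genes of class II presentation did not fall together with the drug. Of 24 listed genes, 18 were tested, 3 were called higher and 3 lower, with a median of 0.23. Over all genes tested, limma called 19.6% higher and 23.9% lower. The thiol reductase gene Ifi30, which unfolds endosomal antigens, fell by 2.03 on the log2 scale (5.64 and 9.29 RPKM with pentoxifylline, 27.3 and 35.5 RPKM with water). The cathepsin Z gene Ctsz fell by 1.53. Rfx5, an X box binding factor, fell by 0.78. The costimulatory ligand gene Cd86 rose by 1.47, cathepsin L (Ctsl) by 1.16 and Rfxap, the RFX5 partner, by 0.57. Among 16 class I presentation genes 8 were called lower and 0 higher, for example the peptide trimmer Erap1 (-1.43), the proteasome activator Psme1 (-1.34) and the immunoproteasome subunit Psmb8 (-1.20), with a median of -0.44. In the interferon-gamma axis 5 of 10 genes were called higher and 4 lower, with Ifng at -4.14, Irf8 at -3.85 and Jak2 at 1.81. These lists were written with earlier results of the data known.

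Transcripts typical of antigen-presenting cells, and of plasma cells, were present in the stimulated libraries. Between c-Rel-deficient and water libraries, 7 of 10 B cell genes, 3 of 3 plasma cell genes, 4 of 10 dendritic cell genes and 9 of 14 macrophage and monocyte genes were lower without overlap, and 0 were higher. Over all tested genes 16.3% were lower and 24.2% higher. Most of the listed genes did not pass the low-value filter, so these shares come from genes of higher level. Their summed levels in c-Rel-deficient and water libraries ran from 5.70 to 5.91 against 8.36 to 10.99 RPKM for B cells, 0.456 to 0.516 against 11.2 to 16.7 for plasma cells, 3.34 to 4.41 against 7.14 to 7.94 for dendritic cells with Cst3 left out, and 4.16 to 4.83 against 9.92 to 12.6 for macrophages and monocytes. Cst3, the cystatin C gene on the dendritic cell list, made up most of that list's sum, with 73.1 and 82.6 RPKM without c-Rel and 81.6 and 118 RPKM with water. The defining dendritic cell genes Itgax, Flt3 and Zbtb46 summed to 1.13 to 2.68 RPKM without c-Rel and 4.71 to 4.99 RPKM with water. Lyz2, Csf1r and Cd14 summed to 0.0472 to 0.0829 RPKM without c-Rel and 1.34 to 3.74 RPKM with water, and the B cell genes Cd79a and Ms4a1 to 0.470 to 0.863 RPKM without c-Rel and 1.48 to 1.91 RPKM with water. Csf1r and Pax5 were at 0 in both c-Rel-deficient libraries and Flt3 in the first. Cd14 was at 0 in the first c-Rel-deficient library and in the second water library.

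With pentoxifylline the lists did not all move with the chain genes. Over all tested genes 37.2% were higher and 38.3% lower than with water without overlap, while 8 of 10 B cell genes were lower and 0 higher. Here too most of the listed genes did not pass the low-value filter that the tested genes passed. Their sum was 5.36 to 6.66 RPKM with the drug and 8.36 to 10.99 RPKM with water, while the defining Cd79a and Ms4a1 overlapped at 1.68 to 1.99 RPKM with the drug and 1.48 to 1.91 RPKM with water. Of 3 plasma cell genes Sdc1 was higher and Tnfrsf17 lower, and their sum overlapped at 7.46 to 19.9 RPKM with the drug and 11.2 to 16.7 RPKM with water. Of 10 dendritic cell genes 2 were higher and 4 lower. The defining dendritic cell sum was 9.10 to 10.7 RPKM with the drug and 4.71 to 4.99 RPKM with water, and most of it was Zbtb46, with 317 and 313 reads with the drug and 196 and 171 with water. Flt3, in contrast, had 2 and 13 reads with the drug and 35 and 39 with water. Of 14 macrophage and monocyte genes 2 were higher and 8 lower, and their sum was 7.58 to 7.70 RPKM with the drug and 9.92 to 12.6 RPKM with water. In these bulk libraries fewer cells of a type and less RNA per cell cannot be told apart, and the part of other cells in the class II levels was not tested.

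**Figure D3:**
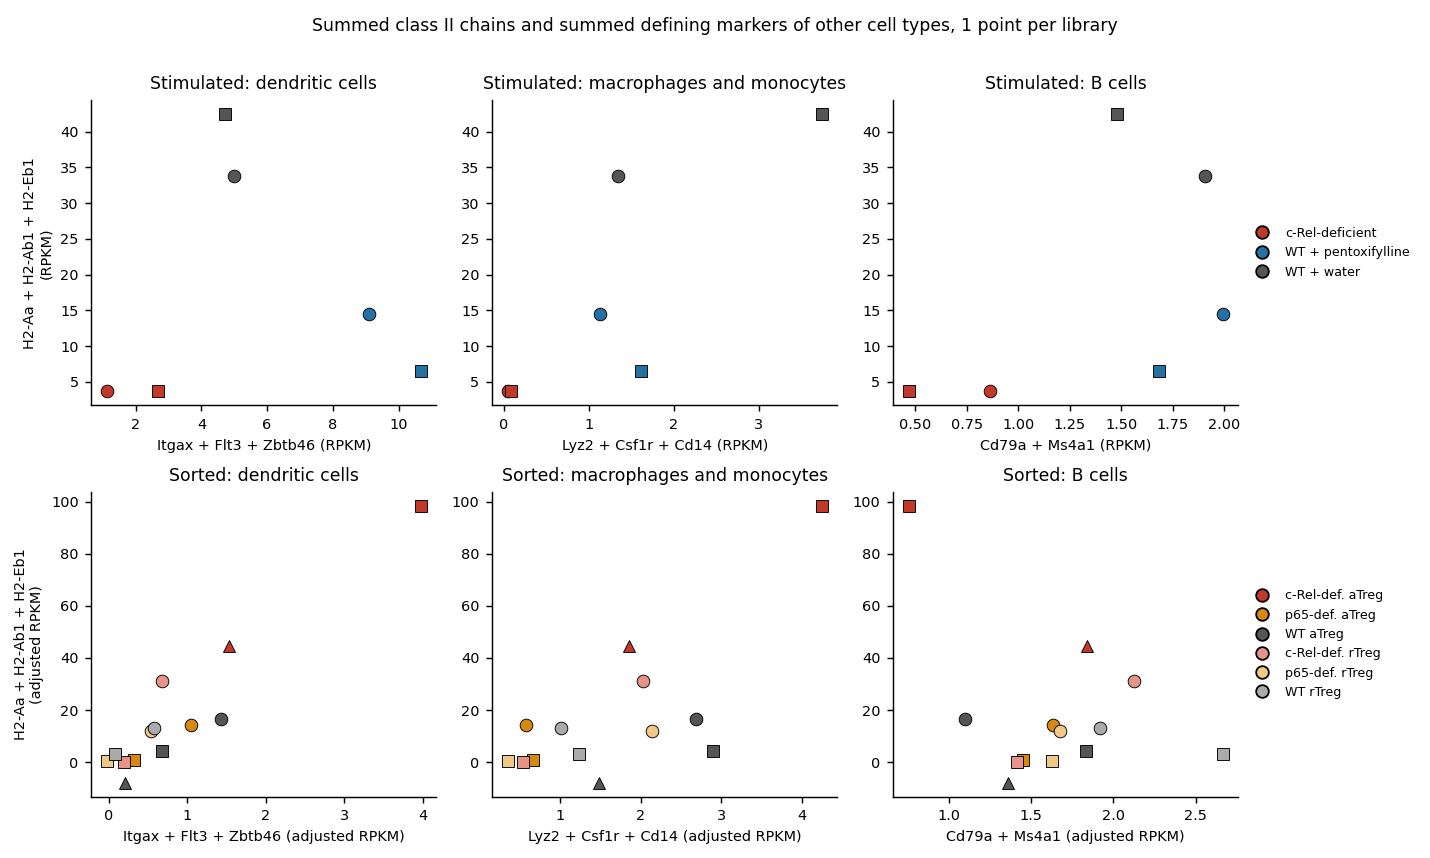
Summed level of H2-Aa, H2-Ab1 and H2-Eb1 (vertical axis) against the summed defining genes of dendritic cells, of macrophages and monocytes, and of B cells (horizontal axes), all in RPKM, 1 point per library, stimulated above and sorted below. Circles, squares and triangles are replicates 1, 2 and 3. The c-Rel-deficient aTregs have the highest chain sums of the sorted set and the highest dendritic cell sums, at 1.53 to 3.97, but not the highest B cell sums.

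In sorted aTregs the chain genes were highest without c-Rel, and the level differed between the libraries of that group. H2-Aa had 21.1 and 9.74 adjusted RPKM in c-Rel-deficient aTregs (numbers 2 and 3), 3.10 and 0.0338 in p65-deficient aTregs (numbers 1 and 2) and 3.45, 1.01 and -1.90 in WT aTregs (numbers 1, 2 and 3). H2-Ab1 had 45.6 and 20.6 without c-Rel, 6.502 and 0.977 without p65 and 8.24, 1.88 and -3.003 in WT aTregs. H2-Eb1 had 31.9 and 14.3 without c-Rel, 4.59 and -0.0467 without p65 and 5.05, 1.36 and -3.02 in WT aTregs. For each chain gene both c-Rel-deficient libraries were above the other 11 sorted libraries. Within numbers 2 and 3, c-Rel-deficient minus WT aTregs was 20.1 and 11.6 adjusted RPKM for H2-Aa, 43.7 and 23.6 for H2-Ab1 and 30.5 and 17.3 for H2-Eb1.

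The proportions among the chain differences were alike in both numbers. The H2-Ab1 difference was 2.18 and 2.03 times that of H2-Aa in numbers 2 and 3, and the H2-Eb1 difference 1.52 and 1.49 times. In the stimulated water libraries, in contrast, the H2-Ab1 level was 0.789 and 0.786 of the H2-Aa level and the H2-Eb1 level 0.701 and 0.629 of it. Those are ratios of levels, while the sorted ones are ratios of differences, and the tables were normalised separately.

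Cd74 had 262 and 203 adjusted RPKM in c-Rel-deficient aTregs, 47.8 and 51.3 in p65-deficient aTregs and 160, 116 and 15.6 in WT aTregs. The c-Rel-deficient libraries were above the rest of the aTregs, and the WT libraries spread more widely than either mutant group. H2-DMa had 32.8 and 30.7 without c-Rel, 20.6 and 30.4 without p65 and 21.1, 27.8 and 31.5 in WT aTregs, and these overlapped. H2-DMb1 had 1.45 and 0.469 without c-Rel, 0.440 and 0.291 without p65 and 0.365, 0.373 and 0.394 in WT aTregs, so only the first c-Rel-deficient library stood well above the rest.

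Ciita followed the chains at a low level, with 1.02 and 0.367 adjusted RPKM in c-Rel-deficient aTregs, 0.172 and 0.0797 in p65-deficient aTregs and 0.185, 0.165 and 0.118 in WT aTregs. Ctss had 251 and 343 without c-Rel, 278 and 348 without p65 and 265, 281 and 278 in WT aTregs, with no order between groups. Ctsh had 4.23 and 1.98 without c-Rel, 1.24 and 0.673 without p65 and 1.24, 0.728 and 0.00258 in WT aTregs. As in the stimulated set, Ctsh moved in the direction of the chains and Ctss overlapped.

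As a description, 7 of the 9 genes were higher in both c-Rel-deficient aTreg libraries than in all WT aTreg libraries, and H2-DMa and Ctss overlapped, so these genes did not show the opposite movement for which the 9 were picked. Over all tested genes, 11.8% were higher and 13.8% lower without overlap. The log2 differences were 3.84 for H2-Ab1, 3.66 for H2-Eb1, 3.37 for H2-Aa, 1.79 for Cd74, 1.74 for Ctsh, 0.26 for H2-DMa and 0.10 for Ctss, with a median of 1.79 over the 7 genes and 0.01 over all 10656 genes tested. In limma 0.0% of genes passed in this contrast (717 at an unadjusted p under 0.05), and 0.52% passed in the authors' deposited table, among them H2-Ab1, H2-Aa and H2-Eb1, all higher.

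**Figure D4:**
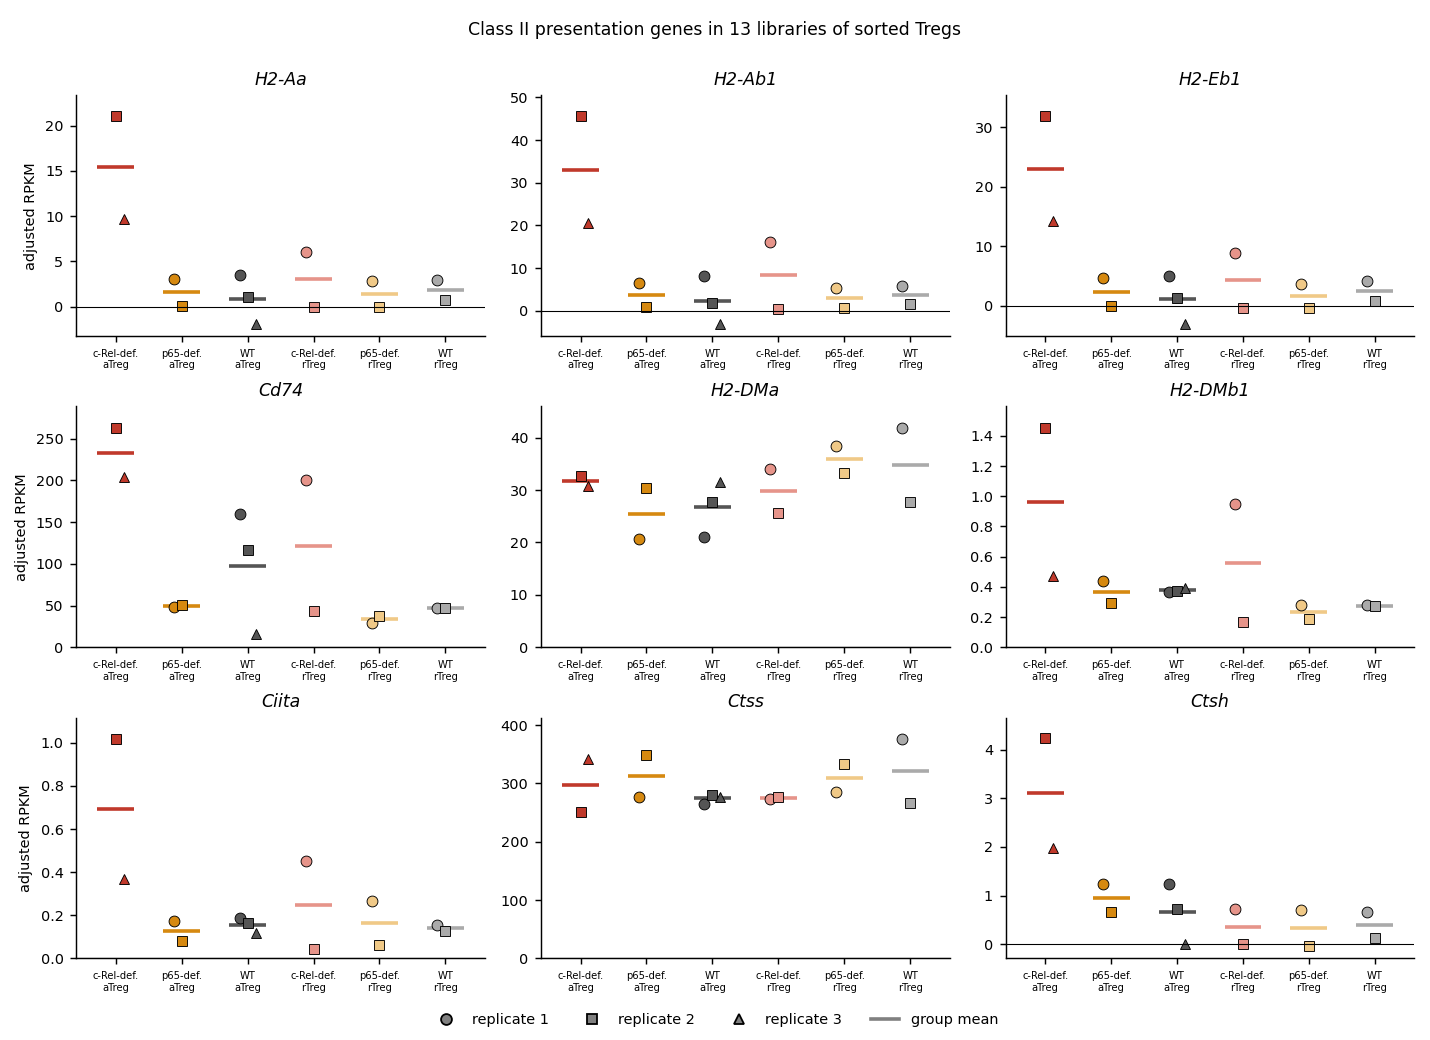
Adjusted RPKM of each of the 9 genes (vertical axis, linear, 1 panel per gene) in the 13 sorted libraries, by group on the horizontal axis. Circles, squares and triangles are replicates 1, 2 and 3, and the bar is the group mean. For H2-Aa, H2-Ab1, H2-Eb1 and Ctsh the c-Rel-deficient aTregs lie above the other groups, while c-Rel-deficient rTregs hold 1 high and 1 low library for Cd74.

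In resting Tregs the c-Rel-deficient libraries disagreed with each other. H2-Ab1 had 16.1 and 0.512 adjusted RPKM in c-Rel-deficient rTregs (numbers 1 and 2), 5.27 and 0.644 in p65-deficient rTregs and 5.92 and 1.66 in WT rTregs. Cd74 had 199.99 and 43.0 without c-Rel, 29.3 and 37.5 without p65 and 47.4 and 46.6 in WT rTregs. The first c-Rel-deficient library was the highest rTreg library for H2-Ab1, Cd74, H2-Aa (6.05), H2-Eb1 (8.90), H2-DMb1 (0.951) and Ciita (0.452), and the second was below the WT library of its number for the same genes. Within numbers 1 and 2, c-Rel-deficient minus WT was 10.2 and -1.15 for H2-Ab1 and 153 and -3.65 for Cd74.

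All 9 genes overlapped between c-Rel-deficient and WT rTregs. In limma 0 of the 7 tested genes passed, with 0 at an unadjusted p under 0.05, and 0.0% of all genes passed (775 at an unadjusted p under 0.05). Rel itself did not pass, at a log2 difference of -2.22 (SE 0.46, limma adjusted p = 0.627), so a missing call does not show an unchanged level. Cd74 had a log2 difference of 0.97 (SE 0.94, limma adjusted p = 0.879), and H2-Ab1 one of 0.14 (SE 1.52). The median was -0.15, against -0.02 over all genes, and leaving out 1 library it ran from -0.74 without the first c-Rel-deficient library to 1.70 without the second. The share that passed was 0.027% in the authors' deposited table, with 0 of the 9 genes among them.

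Loss of p65 gave no class II call in either subset, which does not show that levels were unchanged. In rTregs 8 of the 9 genes overlapped with WT and Cd74 was lower without overlap, with a log2 difference of -0.50 (SE 0.94, limma adjusted p = 0.968). Over all tested genes 17.2% were lower without overlap there. In limma 0 of 7 tested genes passed, with 0 at an unadjusted p under 0.05, and 0.0% of all genes passed (726 at an unadjusted p under 0.05), while 0.0337% passed in the authors' deposited table, with 0 of the 9 among them. The median was -0.50, against -0.03 over all genes, and leaving out 1 library it ran from -0.77 without the first p65-deficient library to 0.50 without the second. In the same p65-deficient rTregs 5 of 10 B cell genes were lower and 1 higher than in WT rTregs without overlap (13.9% of all tested genes were higher), and their sum was 11.8 to 12.04 adjusted RPKM in p65-deficient and 16.7 to 20.5 in WT rTregs. Their part in the Cd74 level was not tested.

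In aTregs without p65, Cd74 differed from the WT library of the same number by -112 and -64.9 adjusted RPKM, but the third WT library, at 15.6, was below both p65-deficient libraries. Its log2 difference was -0.42 with that library (SE 0.86, limma adjusted p = 0.998) and -1.45 without it (limma adjusted p = 0.791). H2-Aa (-0.05, SE 1.29), H2-Ab1 (0.56, SE 1.39) and H2-Eb1 (-0.11, SE 1.5) had errors far larger than their differences. All 9 genes overlapped between the groups. In limma 0 of 7 tested genes passed, with 0 at an unadjusted p under 0.05, and 0.0% of all genes passed (365 at an unadjusted p under 0.05). The median was -0.05, against -0.01 over all genes. It was -0.50 without the third WT library, -0.39 with the replicate number as a block, and up to 0.77 leaving out 1 library, the second p65-deficient one. In this comparison 0.196% of genes passed in the authors' deposited table and 0 of the 9, with Cd74 at -1.54 and an adjusted p of 0.654. Of 14 macrophage and monocyte genes 3 (Lyz2, Cd14 and C1qa) were lower without p65 without overlap and 0 higher, against 11.7% of all tested genes lower. The defining genes of that list summed to 0.578 to 0.668 adjusted RPKM in p65-deficient and 1.49 to 2.90 in WT aTregs, while the whole list overlapped at 5.20 to 10.9 and 2.35 to 14.4. Their part in the Cd74 level was not tested. The WT aTreg libraries here are those of the contrast that chose the genes.

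Between aTregs and rTregs of WT mice, Cd74 was higher in aTregs by 113 and 69.5 adjusted RPKM in numbers 1 and 2, and Ctsh by 0.58 and 0.61. The third aTreg library has no rTreg partner of its number. With it the log2 difference of Cd74 was 0.50 (SE 0.86, limma adjusted p = 0.714), and without it 1.53 (limma adjusted p = 0.0704). In limma 0 of 7 tested genes passed, with 0 at an unadjusted p under 0.05, and 12.2% of all genes passed. Of all genes 11.2% passed in the authors' deposited table, with Cd74 (1.64, adjusted p = 0.0273) and Ctsh (1.62, adjusted p = 0.0296) called higher. H2-DMb1 was the only 1 of the 9 that was higher in aTregs without overlap, against 19.0% of all tested genes. The limma median was -0.36, against -0.06 over all genes. Its sign turned to 0.28 with the replicate number as a block, to 0.29 without the third WT aTreg library and to 0.28 without the first WT rTreg library. These WT aTreg libraries also took part in choosing the genes. Of 14 macrophage and monocyte genes 3 were higher in WT aTregs without overlap and 0 lower, with sums of 2.35 to 14.4 adjusted RPKM in aTregs and 5.55 to 8.99 in rTregs, and of 10 B cell genes 1 was higher and 3 lower, against 21.9% of all tested genes lower. Their part was not tested.

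In p65-deficient cells Cd74 and H2-DMb1 were higher and H2-DMa was lower in aTregs than in rTregs without overlap, and 6 of the 9 genes overlapped. Over all tested genes 27.2% were higher and 37.0% lower without overlap. Cd74 was higher in aTregs by 18.5 and 13.7 adjusted RPKM in numbers 1 and 2, and H2-DMa differed by -17.8 and -2.93. Their log2 differences were 0.57 (SE 0.94) and -0.51 (SE 0.25), with limma adjusted p of 0.748 and 0.27. Ctsh, at 1.24 and 0.673 in aTregs and 0.698 and -0.0360 in rTregs, had a log2 difference of 0.89 (SE 0.67, limma adjusted p = 0.458). In limma 0 of 7 tested genes passed, with 0 at an unadjusted p under 0.05, and 3.17% of all genes passed. The median was 0.14, against -0.06 over all genes, and leaving out 1 library it ran from -0.61 without the second p65-deficient rTreg library to 1.44 without the first. The authors' deposited table used here gives no such comparison.

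Without c-Rel the aTreg library numbered 2 was above the rTreg library of that number by 45.1 adjusted RPKM for H2-Ab1, 21.1 for H2-Aa, 32.2 for H2-Eb1 and 219 for Cd74. As a description, 5 of the 9 genes were higher in both aTreg libraries than in both rTreg libraries and 4 overlapped, against 21.9% of all tested genes higher without overlap. The median log2 difference was 2.12, against -0.05 over all genes, and 0.0% of genes passed in limma (1494 at an unadjusted p under 0.05). The groups share only number 2. With the class II genes, 9 of 11 dendritic cell genes were higher in the aTregs without overlap and 0 lower, and 8 of 14 macrophage and monocyte genes were higher and 1 lower. The defining dendritic cell genes summed to 1.53 to 3.97 adjusted RPKM in c-Rel-deficient aTregs and 0.187 to 0.670 in c-Rel-deficient rTregs, and the macrophage and monocyte list to 22.9 to 39.6 and 3.96 to 11.5. Their part in the class II levels was not tested.

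Among other class II presentation genes, 19 were tested in the sorted set. In WT aTregs against rTregs 2 were called higher, Cd80 (1.36) and Rfx5 (0.52), and 3 lower, H2-Ob (-1.34), Ctsl (-0.92) and Rfxap (-0.48), while limma called 7.54% of all genes higher and 4.68% lower. In p65-deficient cells Cd80, a costimulatory ligand, was higher by 2.18 and none was lower, against 2.79% of all genes higher. In stimulated Tregs without c-Rel, 0 of 18 listed genes passed in limma and 2 of 21 were called lower in the authors' deposited table, where 1.66% of all genes were. The comparisons of p65-deficient or c-Rel-deficient with WT rTregs and of p65-deficient with WT aTregs gave 0 calls in limma. In WT aTregs against rTregs the authors' deposited table called 3 of 21 listed genes higher and 0 lower. Of all genes it called 7.98% higher and 3.26% lower there. In c-Rel-deficient against WT aTregs it called 1 of 21 higher and 0 lower, where 0.398% of all genes were higher. Among the 16 class I genes limma called 0 in any sorted comparison. Among the interferon-gamma axis genes it called only Ifngr2, lower in WT aTregs than in WT rTregs by a log2 difference of -1.26. The authors' deposited table called 2 of 10 interferon-gamma axis genes higher and 1 lower in WT aTregs against rTregs.

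Many dendritic cell transcripts and some of myeloid and NK cells were above WT in the c-Rel-deficient aTregs. In limma 0.0% of all genes passed in this contrast. Several of these transcripts, among them Itgax, Flt3 and Cd209a, did not pass the low-value filter and were not tested. Of 11 dendritic cell genes, 7 were higher than in WT aTregs without overlap and 0 lower, against 11.8% higher and 13.8% lower over all tested genes. The authors' deposited table called 4 of the 11 higher (Siglech, Flt3, Itgax and Cd209a), 2 of 14 macrophage and monocyte genes (Tyrobp and Fcer1g) and 0 of 5 NK cell genes, with 0.52% of all genes called. Siglech, a plasmacytoid dendritic cell receptor gene, had 4.34 and 2.97 adjusted RPKM in c-Rel-deficient aTregs and 0.719, 0.0279 and -0.938 in WT aTregs. Itgax, which encodes CD11c, had 2.26 and 0.786 in c-Rel-deficient aTregs and 0.310, -0.0336 and -0.108 in WT aTregs, and Flt3 had 1.101 and 0.505 in c-Rel-deficient aTregs and 0.151, -0.00227 and -0.158 in WT aTregs. The defining dendritic cell genes summed to 1.53 to 3.97 in c-Rel-deficient aTregs and 0.207 to 1.43 in WT aTregs, while the whole list, most of it Cst3, overlapped at 81.8 to 103 and 82.4 to 102. Zbtb46 overlapped.

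Of 14 macrophage and monocyte genes 5 were higher in c-Rel-deficient aTregs and 1 lower, and their sum was 22.9 to 39.6 adjusted RPKM in c-Rel-deficient aTregs and 2.35 to 14.4 in WT aTregs. Their defining genes overlapped at 1.86 to 4.24 in c-Rel-deficient aTregs and 1.49 to 2.90 in WT aTregs. Of 5 NK cell genes 2 were higher and 1 lower, with a sum of 12.97 to 36.0 in c-Rel-deficient aTregs and 2.71 to 9.27 in WT aTregs, while the defining Ncr1 overlapped at -0.0064 to 0.177 and 0.0225 to 0.140. Of 10 B cell genes 0 were higher and 1 lower, and Cd79a and Ms4a1 summed to 0.760 to 1.84 in c-Rel-deficient aTregs and 1.102 to 1.83 in WT aTregs. The part of such cells in the class II levels was not tested.

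The first c-Rel-deficient rTreg library, high in H2-Ab1 and Cd74, did not show the same dendritic cell pattern. Siglech had 0.743 adjusted RPKM there and Itgax 0.310, against 0.719 and 0.310 in the WT rTreg library of that number. Each of these WT values is the lowest of number 1, tied in 3 libraries, so it marks a floor. Tyrobp, a myeloid and NK adaptor gene, had 2.67 there against 1.89. The summed B cell list of that c-Rel-deficient library was 19.5 adjusted RPKM against 20.5 in that WT library. Its summed macrophage and monocyte list was 11.5 against 8.99, and the defining Lyz2, Csf1r and Cd14 summed to 2.03 against 1.02. The defining dendritic cell genes summed to 0.670 against 0.579, and Cd79a and Ms4a1 to 2.13 against 1.92. The p65-deficient rTreg library of that number had the lowest H2-Ab1 (5.27) and Cd74 (29.3) of number 1. Its macrophage and monocyte list summed to 10.6 and the defining genes of that list to 2.14. Its B cell list summed to 11.8, its defining dendritic cell genes to 0.531, and Cd79a and Ms4a1 to 1.68. The part of other cells in these levels was not tested.

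Across libraries the chain genes ran closely together. On the log2 scale H2-Eb1 correlated with H2-Aa at r = 0.99 over the 6 stimulated and 1.00 over the 13 sorted libraries, and H2-Ab1 with H2-Aa at 0.99 and 0.98. Cd74 followed H2-Aa at 0.92 and 0.76, Ctsh at 0.85 and 0.89, Ciita at 0.81 and 0.87 and H2-DMb1 at 0.86 and 0.76. H2-DMa (-0.19 and 0.10) and Ctss (0.06 and -0.20) did not. Libraries share groups, depth and, in the sorted set, replicate numbers. The genes were also picked on contrasts among these libraries, so correlation between them is partly built in. These are descriptions only.

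The genes whose levels most resembled the mean profile of the 9 genes, by Pearson's r on log2(RPKM + 0.5), were Tyrobp (r = 0.94), Ccl22 (0.91), Ly6d (0.91), Serpinc1 (0.90) and Fscn1 (0.89) among 2810 variable genes in the 6 stimulated libraries. In the 13 sorted libraries they were Gzmk (0.97), Tyrobp (0.96), Spp1 (0.96), Wnt10a (0.96) and Pld4 (0.96) among 1367 genes. Tyrobp was the only gene in both lists. It ran from 0.237 to 1.78 RPKM in the stimulated and from -1.86 to 11.7 adjusted RPKM in the sorted libraries. The mean profile comes from genes picked on these same libraries, so the ranking is a description.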

How the data were processed

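RNA was sequenced in 19 Treg libraries, with library construction by a TruSeq kit, per the labels. DESeq2 1.10.1, the aligner STAR and the mm10 build are named in the submitters' processing notes. The authors deposited a table per set with RPKM of each library. The same tables hold, per the file headers, p-values and log2 fold changes of the authors' own comparisons. RPKM of the sorted set appear to have been adjusted by replicate number, which is an inference from the values. All 4588 ties between libraries of 1 number lie at the lowest value of that number, 0 ties join numbers, and 2.535% of values lie below 0. What was adjusted, and how, is not given in the sources used here. Decimal commas were read as points, and 20 and 21 entries with a date for a symbol and no values were left out. Columns of library values not used numbered 0.

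The log2 of RPKM plus 0.5 was used, with negative values raised to 0 first. A gene was tested where 2 or more libraries of its set reached 1 RPKM, which left 9945 and 10656 genes, in limma 3.58.1 (R 4.3.3, eBayes with trend, all groups of a set, two-sided) at a Benjamini-Hochberg adjusted p under 0.05. The same adjustment was applied here to the p-values the authors deposited. The steps were checked on simulated data. A group difference was also described by whether libraries overlapped. In the stimulated set, 435 of 435 genes with mean RPKM under 0.1 and values in all 6 libraries were whole reads within 0.05 reads, which gave relative depth; total depth, and any depth in the sorted set, are unknown. The resemblance measure used genes with an SD of at least 0.5 on the log2 scale and named 5.

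The 9 genes, the gene and marker lists and the naming rule (all 9 genes, listed class II genes that passed, up to 3 examples of the other lists) were chosen with earlier results of these data known, and 1 listed B cell marker and the position of Cd74 are not reported here. Promoter sequences came from RefSeq. Same-numbered libraries deviated together with correlations of 0.40, -0.07 and 0.12 in the stimulated set and -0.49 to 0.44 in the sorted set, so numbers were not used as pairs. Alternatives were pseudocounts, filters, scaling, only the groups compared, a replicate block, leaving out each library and, chosen after the data were seen, leaving out both libraries numbered 3. Tables were read with Python 3.11.15 and pandas 2.3.3.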

Additional observations from a re-analysis of the deposited data

Results flagged for a closer look

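The c-Rel-deficient minus WT differences of 7 genes ran in opposite directions without overlap, in stimulated Tregs and in sorted aTregs, on the log2 scale. H2-Aa differed by -3.11 in stimulated Tregs and 3.37 in aTregs, H2-Ab1 by -3.17 and 3.84, and H2-Eb1 by -2.45 and 3.66. Cd74 differed by -0.85 in stimulated Tregs and 1.79 in aTregs, and Ctsh by -2.09 and 1.74. Ciita differed by -0.70 in stimulated Tregs and 0.81 in aTregs, and H2-DMb1 by -0.99 and 0.65, at levels below the filter. The difference between these contrasts was not tested, since the genes were chosen for it and the sets were normalised separately. Culture, sorting and the adjustment of the values also differ between the sets and cannot be told apart from them.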

How the results depend on the processing

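With pentoxifylline, the limma calls of H2-Aa, H2-Eb1 and Cd74 were lost without the second water library, and no other alternative run changed the direction or call of these genes or of H2-Ab1. Leaving out 1 library gave 1 to 5 members called, no filter 6, and the replicate block 4. With the replicate block 0 of the 7 genes were called in the other 5 tested comparisons, as without it. In the contrasts that chose the genes, and in c-Rel-deficient aTregs against rTregs, medians stayed on 1 side of 0. For c-Rel loss in stimulated Tregs the median was -2.72 and -1.64 with pseudocounts of 0.1 and 1, -0.99 without a filter, and -2.36 to -1.83 leaving out 1 library. For c-Rel loss in aTregs it was 2.63 with a pseudocount of 0.1, 2.58 with a filter at 3 RPKM, 2.28 with the replicate block, and 1.23 to 2.42 leaving out 1 library. For c-Rel-deficient aTregs against rTregs it was 3.29 with a pseudocount of 0.1, 1.31 without a filter, 3.09 with the replicate block, and 0.91 (without the second c-Rel-deficient rTreg library) to 2.75 leaving out 1 library.

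Some uncalled differences changed sign. In c-Rel-deficient against WT rTregs H2-Ab1 was -0.049 with a pseudocount of 0.1, and H2-Aa and H2-Eb1 were 0.048 and 0.061 with 1. In p65-deficient against WT aTregs H2-Ab1 and Ctsh were -0.39 and -0.010 with the replicate block, and H2-Ab1, H2-DMa and Ctsh were -0.50, 0.048 and -0.032 without both libraries numbered 3. In WT aTregs against rTregs H2-Aa, H2-Ab1 and H2-Eb1 were 0.28, 0.17 and 0.39 with the replicate block, and 0.28, 0.29 and 0.41 without both libraries numbered 3. Leaving out 1 library, ranges that crossed 0 were, for c-Rel loss in rTregs, H2-Aa -2.01 to 1.70, H2-Ab1 -1.88 to 2.16, H2-Eb1 -2.28 to 1.96, Cd74 -0.13 to 2.08, H2-DMa -0.49 to 0.085, Ctss -0.45 to 0.042 and Ctsh -0.74 to 0.52. For p65 loss in rTregs they were H2-Aa -1.98 to 0.71, H2-Ab1 -1.70 to 0.63, H2-Eb1 -2.28 to 0.79, H2-DMa -0.22 to 0.36, Ctss -0.28 to 0.21 and Ctsh -0.77 to 0.50. For p65 loss in aTregs they were H2-Aa -1.43 to 1.33, H2-Ab1 -0.56 to 1.68, H2-Eb1 -1.79 to 1.56, Cd74 -1.45 to 0.21, H2-DMa -0.35 to 0.20 and Ctsh -0.032 to 0.86. For WT aTregs against rTregs they were H2-Aa -1.24 to 0.28, H2-Ab1 -1.77 to 0.29, H2-Eb1 -1.45 to 0.48, Cd74 -0.14 to 1.53, Ctss -0.45 to 0.039 and Ctsh -0.19 to 0.78. For p65-deficient aTregs against rTregs they were H2-Aa -1.28 to 1.48, H2-Ab1 -0.84 to 1.49, H2-Eb1 -1.53 to 1.81 and Ctss -0.15 to 0.18, and with pentoxifylline Ctss ran from -0.66 to 0.0072. The cause was not tested.

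Over all genes, leaving out 1 library gave 2232 (without the second water library) to 4282 calls with pentoxifylline, against 4324. For c-Rel loss in stimulated Tregs 0 calls became 3 without a filter, 4 with only the groups compared, 1 with the replicate block and up to 284 leaving out 1 library, the second c-Rel-deficient one. For c-Rel loss in aTregs 0 became 40 without a filter, 44 with the replicate block and up to 13 (without the c-Rel-deficient aTreg library numbered 2), and for p65 loss in aTregs 1, 1 and up to 2. WT aTregs against rTregs gave 1302 calls, 200 with only the groups compared, 2077 with the replicate block, 2203 without both libraries numbered 3 and 83 (without the first WT aTreg library) to 2963 (without the second WT rTreg library). In p65-deficient cells 338 calls became 1451, 731, 854 and 0 (without either rTreg library) to 806 (without the third WT aTreg library), and in c-Rel-deficient cells 0 became 901 with the replicate block, 228 without both libraries numbered 3 and up to 179, without the third WT aTreg library. The depth of the sorted libraries is unknown, and the inferred adjustment appears to set the lowest values. Low levels there limit H2-Aa, H2-Ab1, H2-Eb1, Ciita, H2-DMb1 and Ctsh most.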
